A study of Mus musculus with 18 samples.

Results

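Prostanoids are short-range lipid signals made from arachidonic acid, and the mRNA of their enzymes and receptors was measured in mouse kidney before and after ischemia/reperfusion (I/R) injury. The genes were taken by symbol and comprise the enzyme genes Ptgs1, Ptgs2, Ptges, Ptgds and Tbxas1 and the receptor genes Ptger1, Ptger3, Ptger4, Ptgfr and Tbxa2r. They are 10 of the 29307 genes in the deposited table, and all 10 were among the 16342 genes that passed a filter on low values. IKKβ∆Tub mice carried Pax8-rt-TA-LC1Cre with IKKβfl/fl, and control mice carried IKKβfl/fl alone, although the labels call them WT. Both strains received doxycycline in the drinking water from 6 weeks of age, followed by a wash out, so the controls had the agent too. The Pax8 promoter drives the deletion along the renal tubule, and other kidney cells were not targeted. I/R injury was induced by clamping the left renal pedicle. Whole kidney was sequenced in 3 libraries for each of 6 groups, IKKβ∆Tub and control at baseline, 2 days after I/R and 14 days after I/R. The labels describe every library as a pool of 2 mice, while a key deposited with the table lists 10 libraries of 2 mice and 8 of 1 mouse, so p-values measure only the spread between these libraries.

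Several facts of the libraries bear on the values below. The 6 baseline libraries held 26285452 to 66317182 reads and the 12 libraries after I/R held 12306138 to 25933188. The baseline libraries came from another sequencing set and animal series, so in any comparison with baseline the effect of I/R injury cannot be told apart from that of set, depth or series. The comparison of 14 days with 2 days lies within 1 sequencing set, although the animal series differed between those times as well. Ikbkb, the targeted gene, had levels of 0.376 to 0.551 in IKKβ∆Tub and 0.736 to 0.861 in control at baseline, and 0.669 to 0.844 in IKKβ∆Tub against 1.11 to 1.21 in control at 14 days. At 2 days the ranges overlapped, with 0.846 to 0.986 in the libraries labelled IKKβ∆Tub and 0.829 to 1.29 in those labelled control. Replicates 1 and 2 labelled control at 2 days also held 21 and 31 reads of Vmn1r32. That gene had 0 reads in every control library at the other times, so the genotype of these 2 libraries is in doubt. Without them only control replicate 3 remains at 2 days, and its animal series differs from that of the other 2-day libraries. Runs without them therefore cannot show the spread of control at 2 days. IKKβ∆Tub replicate 2 at 14 days stood apart from its group, with a summed macrophage marker level of 3.13 against 15.5 and 17.5. Libraries with Y-linked expression numbered 2, 3 and 0 of 3 in IKKβ∆Tub and 0, 1 and 2 of 3 in control at baseline, 2 and 14 days.

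In prostanoid synthesis, phospholipases free arachidonic acid from membranes, and the cyclooxygenases COX-1 and COX-2 turn it into the unstable precursor prostaglandin H2. Terminal synthases then make prostaglandins E2, D2, F2α and I2 and thromboxane A2, each of which acts close to its source through G protein-coupled receptors. In the kidney these lipids are known for setting vascular tone, renin release and the handling of salt and water, and they take part in inflammation.

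mRNA levels below are the deposited values, in which the reads of a gene are scaled to the 90th percentile within the library. Levels of different genes are compared only after division by exonic length. In control kidneys at baseline the level per kb was 0.166 for Ptger3, 0.133 for Ptges, 0.129 for Ptgds, 0.125 for Ptgs1 and 0.0997 for Ptgfr, followed by 0.0561 for Tbxa2r. It was 0.0127 for Ptger4, 0.0123 for Tbxas1, 0.00925 for Ptgs2 and 0.00324 for Ptger1. The first 4 of this order overlapped in their 3 libraries, as did Ptger4, Tbxas1 and Ptgs2. Ptgfr lay below Ptgs1 without overlap but within the range of Ptgds. Tbxa2r and Ptger1 did not overlap with their neighbours. In each of the 18 libraries Ptgs2 was below Ptgs1 per kb, with ratios of 0.0132 to 0.182. Over all libraries the levels spanned 1.9-fold for Ptgs1, 2.89-fold for Ptges and 3.18-fold for Ptgfr, against 9.64-fold for Ptgds and 14.6-fold for Ptgs2. Reads per library went down to 10 for Ptgs2, 23 for Ptger1 and 31 for Tbxa2r, so these genes carry the largest counting error.

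**Figure D1:**
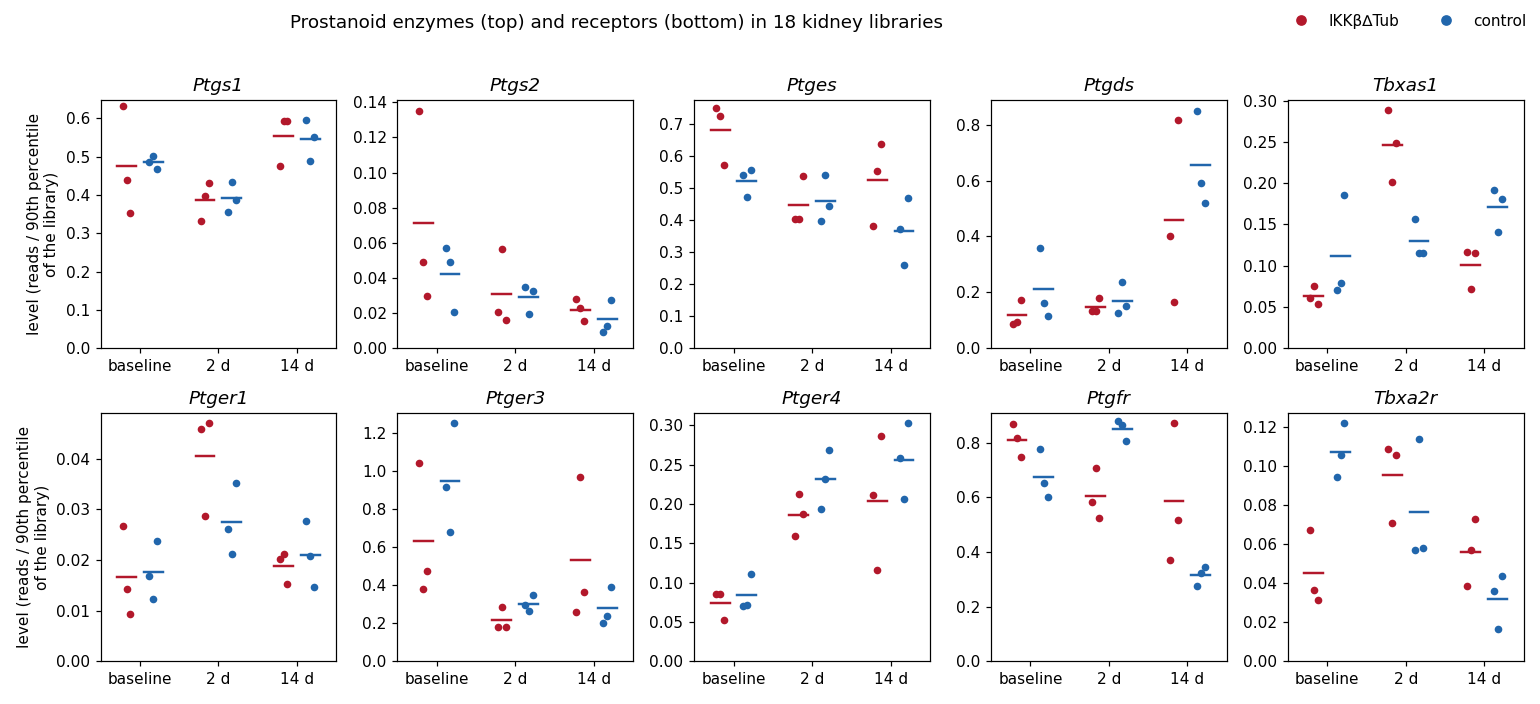
Level of each prostanoid gene (reads divided by the 90th percentile of the library, linear axes from 0) by time, with IKKβ∆Tub in red left of control in blue. Points are libraries and bars are means of 3. Ptger4 lay between 0.0523 and 0.111 in every baseline library and between 0.116 and 0.303 in every library after I/R.

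The question of each time comparison was how the transcripts changed within a strain after I/R. Tests were made with limma on log2(level + 0.005) in 1 fit over the 18 libraries, with Benjamini-Hochberg adjustment over all genes tested and a threshold of 0.05. In IKKβ∆Tub at 2 days against baseline, 4 of the 10 genes rose (Tbxas1, Ptger1, Ptger4 and Tbxa2r), while 35.4% of all genes rose. Ptges and Ptger3 fell there, where 14.9% of all genes fell. In control at 2 days Ptger4 rose and Ptger3 fell, against 25.4% and 11.3% of all genes. At 14 days against baseline, Ptgds and Ptger4 rose in IKKβ∆Tub (28.3% of all genes) and none fell (11.2%). In control at 14 days Ptgds and Ptger4 rose (32.5%) and Ptges, Ptger3, Ptgfr and Tbxa2r fell (17.3%). From 2 to 14 days Ptgs1 and Ptgds rose (14.1%) and Tbxas1 and Ptger1 fell (19.6%) in IKKβ∆Tub. In control Ptgds rose (16.8%) and Ptgfr and Tbxa2r fell (18.2%). With 0 to 4 of 10 genes in a direction these shares are near the background or rest on few genes, so the members are described one by one. The groups did not overlap for 7, 2 and 3 of the 10 genes in IKKβ∆Tub at 2 days against baseline, 14 days against baseline and 14 against 2 days, where 56.3%, 43.4% and 40% of all genes did not. In control they did not overlap for 4, 6 and 4, against 56.7%, 59% and 51.2%. The comparisons within a strain share libraries and are not independent of each other.
Over all genes, the median log2 change against baseline was 0.25 in IKKβ∆Tub at both times and 0.16 and 0.23 in control at 2 and 14 days. Rescaling the libraries by median ratios brought these medians to -0.03, 0.03, -0.00 and 0.04. No change called for a member changed its sign under that scaling, and 1 lost its call, as given with Tbxa2r below. Against baseline, 8 further changes were called after rescaling, all of them lower. As rescaling lowered the median over all genes too, and the share of all genes called after it was not counted, this number describes the scaling. They were Ptgs1, Ptgs2 and Ptgfr at 2 days and Ptgs2, Ptges and Ptgfr at 14 days in IKKβ∆Tub, and Ptgs1 at 2 days and Ptgs2 at 14 days in control.

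**Figure D2:**
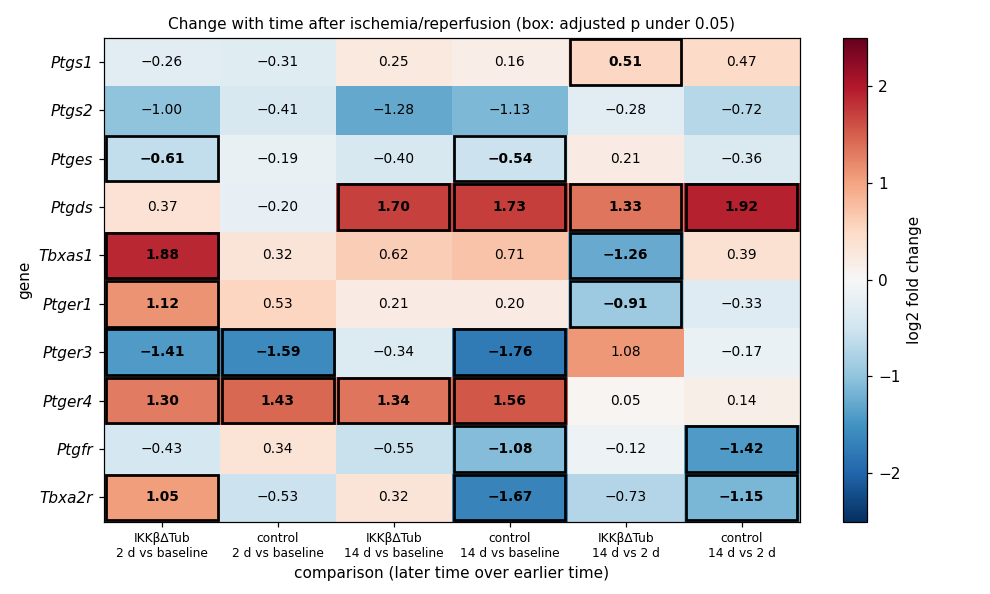
Fitted log2 fold change of each gene (rows) in 6 comparisons of a later with an earlier time (columns), red for higher and blue for lower at the later time. Boxes mark an adjusted p under 0.05 with limma. Ptger4 is boxed in all 4 comparisons with baseline, at 1.30 to 1.56, and in neither comparison of 14 with 2 days.

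Among the enzymes, Ptgs1 (ENSMUSG00000047250, chr2:36230426-36252272 on GRCm38) encodes COX-1, the constitutive cyclooxygenase. Its level at 14 days in IKKβ∆Tub was 0.476, 0.594 and 0.592, against 0.333, 0.397 and 0.431 at 2 days. All 3 libraries at 14 days were above those at 2 days, a log2 change of 0.51 (SE 0.18, adjusted p = 0.0366 with limma). In control the levels were 0.596, 0.488 and 0.552 at 14 days and 0.356, 0.433 and 0.386 at 2 days. These groups did not overlap either, at 0.47 (SE 0.18, adjusted p = 0.0503 with limma, 0.0406 with edgeR). At 2 days against baseline the change depended on the scaling. In IKKβ∆Tub it was -0.26 with limma (SE 0.18, adjusted p = 0.238), -0.61 with edgeR (adjusted p = 0.00743) and -0.58 after rescaling by median ratios (adjusted p = 0.0094), and the groups overlapped. In control all 3 libraries at 2 days were below baseline, with -0.31 in limma (SE 0.18, adjusted p = 0.187), -0.54 in edgeR (adjusted p = 0.0199) and -0.50 after rescaling (adjusted p = 0.0277). At 14 days against baseline no tool made a call in either strain. The call in IKKβ∆Tub was lost without replicate 1 or 2 at 2 days or replicate 2 or 3 at 14 days, with adjusted p-values of 0.0521 to 0.151. In that strain all 3 libraries at 2 days and none at 14 days had Y-linked expression, and with a term for it the log2 fold change was 0.24 (adjusted p = 0.406 with limma).
Ptgs2 (ENSMUSG00000032487, chr1:150100031-150108227) encodes COX-2, the inducible cyclooxygenase, which in kidney is known from the macula densa and medullary interstitial cells. Its level at 14 days was 0.0279, 0.0227 and 0.0153 in IKKβ∆Tub, against 0.135, 0.0491 and 0.0297 at baseline. The 14-day libraries all lay below baseline, but the log2 fold change of -1.28 (SE 0.51) did not pass with limma (adjusted p = 0.0548) and passed with edgeR (-1.89, adjusted p = 0.0225). In control the levels were 0.00928, 0.0128 and 0.0274 at 14 days and 0.0572, 0.0493 and 0.0206 at baseline, with overlap (-1.13, SE 0.51, adjusted p = 0.0737 with limma, 0.044 with edgeR). A call was also made without replicate 3 at baseline in IKKβ∆Tub (-1.72, adjusted p = 0.0255 with limma), and in control without replicate 3 at baseline (-1.53, adjusted p = 0.03) or at 14 days (-1.47, adjusted p = 0.0417). At 2 days it had levels of 0.0208, 0.0563 and 0.016 in IKKβ∆Tub and 0.035, 0.0197 and 0.0324 in control, overlapping with baseline in both. In IKKβ∆Tub this change did not pass with limma (adjusted p = 0.113) or edgeR (0.0598) and passed after rescaling (-1.28, adjusted p = 0.0488).

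Ptges (ENSMUSG00000050737, chr2:30889471-30929863) encodes the inducible microsomal synthase of prostaglandin E2. In IKKβ∆Tub its level was 0.402, 0.402 and 0.537 at 2 days and 0.75, 0.726 and 0.571 at baseline. Every 2-day library was below baseline, a log2 change of -0.61 (SE 0.22, adjusted p = 0.03 with limma). In control it was 0.371, 0.259 and 0.468 at 14 days and 0.542, 0.471 and 0.555 at baseline. The groups touched without overlap, at -0.54 (SE 0.22, adjusted p = 0.0495 with limma). In IKKβ∆Tub at 14 days against baseline the value was -0.40 with limma (SE 0.22, adjusted p = 0.16), -0.64 with edgeR (adjusted p = 0.024) and -0.65 after rescaling (adjusted p = 0.0235), with overlapping groups. Both calls made with limma were fragile. The first was lost without replicate 1 or 2 at baseline or at 2 days (adjusted p 0.0821 to 0.0976). The second was lost without any 1 baseline library or replicate 1 or 2 at 14 days. Without control replicate 2 at 14 days it was -0.32 (adjusted p = 0.254 with limma). With a term for Y-linked expression the second was -0.29 (adjusted p = 0.295 with limma). In control, 0 of 3 libraries at baseline and 2 of 3 at 14 days had such expression.
Ptgds (ENSMUSG00000015090, chr2:25466709-25470046) encodes the lipocalin-type synthase of prostaglandin D2. Its levels in IKKβ∆Tub were 0.0881, 0.0945 and 0.174 at baseline, 0.132, 0.134 and 0.181 at 2 days and 0.401, 0.164 and 0.816 at 14 days. Replicate 2 at 14 days stayed within the range of the earlier times while the others were above it. The log2 change was 1.70 against baseline (SE 0.48, adjusted p = 0.0106 with limma) and 1.33 against 2 days (SE 0.48, adjusted p = 0.0406). In control the levels were 0.359, 0.161 and 0.117 at baseline, 0.125, 0.236 and 0.151 at 2 days and 0.85, 0.593 and 0.519 at 14 days. Here all 14-day libraries were above all others, with 1.73 against baseline (SE 0.48, adjusted p = 0.00685 with limma) and 1.92 against 2 days (SE 0.48, adjusted p = 0.00528). Without IKKβ∆Tub replicate 3 at 14 days the values in that strain were 1.15 (adjusted p = 0.0685) and 0.78 (adjusted p = 0.193). Its call against 2 days was also lost without replicate 1 at 14 days or any library at 2 days (adjusted p 0.0619 to 0.114). The comparison with 2 days in control was 2.04 without the 2 libraries of doubtful genotype, which leaves only control replicate 3 at 2 days.

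Tbxas1 (ENSMUSG00000029925, chr6:38875404-39084585) encodes thromboxane A synthase, which is known from platelets and macrophages. Its level in IKKβ∆Tub was 0.0604, 0.0757 and 0.054 at baseline, 0.289, 0.202 and 0.249 at 2 days and 0.117, 0.0717 and 0.115 at 14 days. The 3 libraries at 2 days were the highest of the 18, and those at 14 days lay below them. The log2 fold change was 1.88 at 2 days against baseline (SE 0.30, adjusted p = 0.00011 with limma) and -1.26 at 14 against 2 days (SE 0.30, adjusted p = 0.00495). In control the level was 0.0711, 0.079 and 0.186 at baseline, 0.157, 0.116 and 0.115 at 2 days and 0.192, 0.141 and 0.181 at 14 days. Replicate 3 at baseline stood with the injured kidneys, and no comparison within control passed. Without that library the change at 14 days was 1.13 (adjusted p = 0.00225 with limma) instead of 0.71 (adjusted p = 0.0616).
Marker levels of blood and immune cells are given beside Tbxas1. The summed level of 14 macrophage markers was 1.7 to 2.16 at baseline, 14.9 to 16.6 at 2 days and 17.5, 3.13 and 15.5 at 14 days in IKKβ∆Tub. It was 2 to 2.58, 10.1 to 12.5 and 27.4 to 39.3 in control at the same times. In IKKβ∆Tub it was about as high in replicates 1 and 3 at 14 days as at 2 days, whereas Tbxas1 was lower at 14 days. The summed level of 7 platelet markers was 0.0917 to 0.107, 0.377 to 0.565 and 0.093 to 0.125 in IKKβ∆Tub, and 0.107 to 0.152, 0.247 to 0.416 and 0.102 to 0.149 in control. The summed level of 9 neutrophil markers was 0.0781 to 0.421, 1.63 to 2.26 and 0.0549 to 0.263 in IKKβ∆Tub, and 0.0226 to 0.0756, 0.661 to 0.777 and 0.401 to 0.995 in control. Like Tbxas1, the macrophage and neutrophil sums were higher in IKKβ∆Tub than in the libraries labelled control at 2 days, without overlap. All 3 were lower in IKKβ∆Tub at 14 days, again without overlap. At baseline the neutrophil sum was higher in IKKβ∆Tub without overlap. Tbxas1 overlapped there, at a log2 strain difference of -0.66 (SE 0.30, adjusted p = 0.31 with limma). No marker of these lists was at 0 in all libraries. The part of these cells in the Tbxas1 values was not tested, and in whole kidney more cells of a type cannot be told apart from more RNA per cell.

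**Figure D3:**
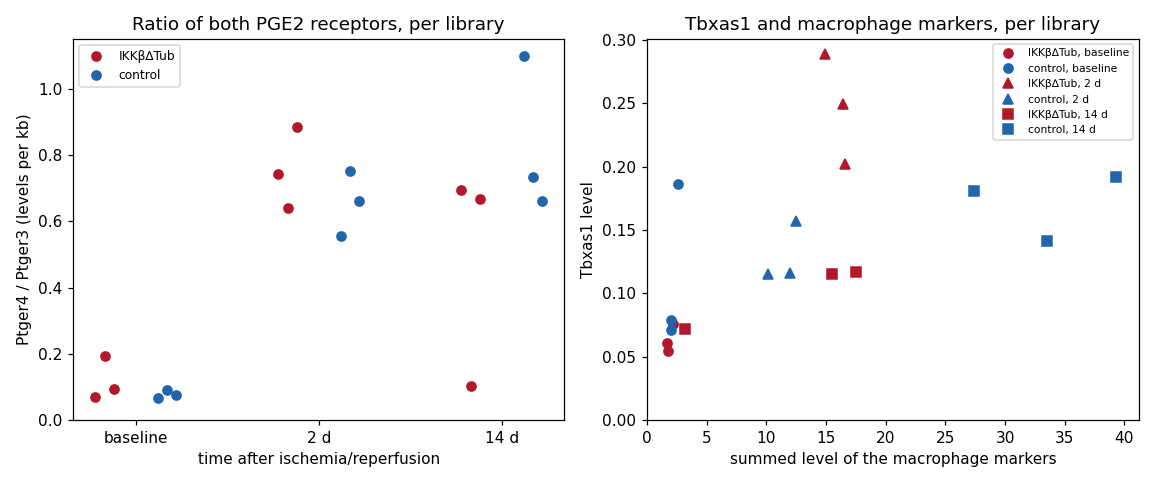
Left, the ratio of Ptger4 to Ptger3 (levels per kb, linear axis from 0) in each library by time, IKKβ∆Tub left of control. Right, the Tbxas1 level against the summed level of the macrophage markers in each library, with time by symbol and strain by colour. One IKKβ∆Tub library at 14 days has a ratio of 0.103 and a macrophage sum of 3.13, both near baseline.

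Among the receptors of prostaglandin E2, the transcripts of EP4 and EP3 moved apart, and those of EP1 and EP2 are given below. EP4, encoded by Ptger4 (ENSMUSG00000039942, chr15:5206661-5244187), couples to the stimulatory G protein of adenylyl cyclase, and EP3, encoded by Ptger3 (ENSMUSG00000040016, chr3:157566892-157645888), to the inhibitory one. The 150 bases before the start of both genes are shown because the pair moved in opposite directions, with those of Ptgs2 for the inducible cyclooxygenase. They are RefSeq sequences on GRCm38.p6, read 5′ to 3′ along the gene. Capitals mark matches on either strand to the GC box GGGCGG, to a CCAAT box or to the C/EBP palindrome TTGCGCAA.
Ptger4 promoter, chr15:5244188-5244337, minus strand: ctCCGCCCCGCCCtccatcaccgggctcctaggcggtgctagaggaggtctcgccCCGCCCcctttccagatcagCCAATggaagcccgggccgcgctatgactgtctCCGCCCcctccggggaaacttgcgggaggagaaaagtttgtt
Ptger3 promoter, chr3:157566726-157566875, plus strand: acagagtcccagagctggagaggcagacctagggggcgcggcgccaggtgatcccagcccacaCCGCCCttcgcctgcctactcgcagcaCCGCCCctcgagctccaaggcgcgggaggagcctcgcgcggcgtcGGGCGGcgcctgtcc
Ptgs2 promoter, chr1:150099881-150100030, plus strand: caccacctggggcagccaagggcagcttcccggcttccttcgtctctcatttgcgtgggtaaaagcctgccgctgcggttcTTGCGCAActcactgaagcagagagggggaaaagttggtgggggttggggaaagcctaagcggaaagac
In the 250 bases before the start, Ptger4 held 4 GC boxes, 2 of which share a base, and 1 CCAAT box. Ptger3 held 3 GC boxes. Ptgs2 held 1 GC box, upstream of the bases shown, and the C/EBP palindrome. A GC box was found in 32.7% of the 32851 promoters in the table, a CCAAT box in 33.8% and the palindrome in 0.164%. A 10-base κB consensus was found in 7.25% of all promoters and, among the 9 genes with a promoter sequence, in Ptgds alone. An E-box (CACGTG, 6.02% of promoters) was found in none of the 9, TGACG, the core of a cAMP response element (17.8%) in Tbxa2r alone and TATAAA (12.4%) in Tbxas1 alone. These matches describe letters and not binding, and bases outside the 250 before the annotated start were not searched.

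Ptger4 levels in IKKβ∆Tub were 0.0851, 0.0858 and 0.0523 at baseline, 0.159, 0.213 and 0.188 at 2 days and 0.211, 0.116 and 0.286 at 14 days. In control they were 0.0699, 0.0718 and 0.111 at baseline, 0.194, 0.232 and 0.269 at 2 days and 0.259, 0.207 and 0.303 at 14 days. Every library after I/R was above every baseline library in both strains. At 2 days the log2 fold change was 1.30 in IKKβ∆Tub (SE 0.29, adjusted p = 0.00168 with limma) and 1.43 in control (SE 0.29, adjusted p = 0.00126). At 14 days it was 1.34 in IKKβ∆Tub (SE 0.29, adjusted p = 0.00233) and 1.56 in control (SE 0.29, adjusted p = 0.000398). All 4 calls held in every alternative run that kept at least 2 libraries in each group. Between 14 and 2 days the gene passed in neither strain.
Ptger3 levels in IKKβ∆Tub were 1.04, 0.381 and 0.473 at baseline, 0.183, 0.285 and 0.182 at 2 days and 0.261, 0.967 and 0.366 at 14 days. In control they were 0.914, 0.677 and 1.25 at baseline, 0.298, 0.264 and 0.348 at 2 days and 0.202, 0.241 and 0.392 at 14 days. Control libraries after I/R were all below baseline, while IKKβ∆Tub replicate 2 at 14 days was at a baseline level. The log2 fold change at 2 days was -1.41 in IKKβ∆Tub (SE 0.43, adjusted p = 0.0115 with limma) and -1.59 in control (SE 0.43, adjusted p = 0.00814). At 14 days it was -1.76 in control (SE 0.43, adjusted p = 0.00284), and in IKKβ∆Tub it did not pass. Against 2 days the 14-day value in IKKβ∆Tub was 1.08 (SE 0.43, adjusted p = 0.0607), with 1.29 (adjusted p = 0.0475) without replicate 2 at 2 days and 1.47 (adjusted p = 0.0214) without replicate 1 at 14 days. Without replicate 2 at 14 days, the library that stood apart, it was 0.53 (adjusted p = 0.305). The value at 2 days was -0.99 (adjusted p = 0.0677 with limma) in IKKβ∆Tub without replicate 1 at baseline. In control it was -1.39 without the 2 libraries of doubtful genotype, which leaves only control replicate 3 at 2 days.
The ratio of Ptger4 to Ptger3 per kb does not depend on the scaling of a library. It was 0.0702, 0.193 and 0.0947 at baseline, 0.744, 0.642 and 0.885 at 2 days and 0.694, 0.103 and 0.669 at 14 days in IKKβ∆Tub. In control it was 0.0654, 0.0908 and 0.076, then 0.556, 0.753 and 0.663, then 1.1, 0.734 and 0.662. All 11 libraries after I/R other than IKKβ∆Tub replicate 2 at 14 days had ratios above all 6 baseline libraries.
EP3 is known from the thick ascending limb and the collecting duct. The summed level of 7 markers of thick ascending limb and macula densa was 116, 76 and 74.2 at baseline, 38.7, 55.2 and 45.3 at 2 days and 23.8, 109 and 22.5 at 14 days in IKKβ∆Tub. In control it was 128, 105 and 85.7, then 73, 54.3 and 64, then 12.8, 23.3 and 30.9. Within each strain the sum was higher at baseline than after I/R, except in the outlying replicate 2, where Ptger3 was at a baseline level too. In control the sum was lower at 14 than at 2 days without overlap. Ptger3 did not pass between those times, at -0.17 (SE 0.43, adjusted p = 0.791 with limma). The part of these cells in the Ptger3 values was not tested.

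Ptger1 (ENSMUSG00000019464, chr8:83666678-83672753) encodes EP1, a receptor of prostaglandin E2 that raises cell calcium. Its level in IKKβ∆Tub was 0.0458, 0.0287 and 0.0471 at 2 days against 0.0267, 0.0142 and 0.00927 at baseline, from 39 to 65 reads a library. These groups did not overlap, at a log2 change of 1.12 (SE 0.31, adjusted p = 0.00694 with limma). At 14 days it was 0.0202, 0.0212 and 0.0153, below every 2-day library, at -0.91 (SE 0.31, adjusted p = 0.0324 with limma, 0.0523 with edgeR), a call lost without replicate 1 or 3 at either time (adjusted p 0.0589 to 0.113). In control the range was 0.0124 to 0.0238 at baseline, 0.0212 to 0.0353 at 2 days and 0.0146 to 0.0278 at 14 days, and no comparison passed. The libraries were stranded, but the strand setting of the counting was not given in the sources used here, so the Ptger1 values are less certain than those of the other genes.

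Ptgfr (ENSMUSG00000028036, chr3:151796502-151837630) encodes FP, the receptor of prostaglandin F2α. In control its level was 0.777, 0.651 and 0.6 at baseline, 0.878, 0.865 and 0.807 at 2 days and 0.276, 0.323 and 0.347 at 14 days. The 14-day libraries were below all others of the strain, at -1.08 against baseline (SE 0.22, adjusted p = 0.000823 with limma) and -1.42 against 2 days (SE 0.22, adjusted p = 0.000171). Both calls held in every alternative run that kept at least 2 libraries in each group. In IKKβ∆Tub the level was 0.869, 0.817 and 0.749 at baseline, 0.583, 0.707 and 0.525 at 2 days and 0.37, 0.871 and 0.517 at 14 days. All libraries at 2 days were below baseline, at -0.43 with limma (SE 0.22, adjusted p = 0.118), -0.74 with edgeR (adjusted p = 0.0229) and -0.75 after rescaling (adjusted p = 0.0195). Replicate 2 at 14 days was the highest of its strain and the other 2 libraries were lower than any at 2 days, so the groups overlapped. The log2 fold change at 14 days against baseline was -0.55 (SE 0.22, adjusted p = 0.0573 with limma, 0.0354 with edgeR), and -0.88 without replicate 2 (adjusted p = 0.00079).

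Tbxa2r (ENSMUSG00000034881, chr10:81328731-81335172) encodes TP, the thromboxane A2 receptor, which is known from platelets and vascular smooth muscle. In control its level was 0.0948, 0.106 and 0.122 at baseline, 0.0573, 0.114 and 0.0583 at 2 days and 0.0362, 0.0165 and 0.0438 at 14 days. The 14-day libraries were below all others of the strain, at -1.67 against baseline (SE 0.36, adjusted p = 0.0011 with limma) and -1.15 against 2 days (SE 0.36, adjusted p = 0.0196). The first call held in every alternative run. The comparison with 2 days gave -0.84 (adjusted p = 0.109 with limma) without replicate 2 at 2 days and -0.80 (adjusted p = 0.115) without replicate 2 at 14 days. It gave -0.85 without the libraries of doubtful genotype, which leaves only control replicate 3 at 2 days. In IKKβ∆Tub the level was 0.0675, 0.0364 and 0.0314 at baseline, 0.109, 0.0712 and 0.106 at 2 days and 0.0386, 0.0571 and 0.0732 at 14 days. Libraries at 2 days were above baseline, at 1.05 (SE 0.36, adjusted p = 0.0221 with limma). This call was lost with edgeR (0.78, adjusted p = 0.0857), after rescaling by median ratios (0.75, adjusted p = 0.0708) and without replicate 2 or 3 at baseline or replicate 1 or 3 at 2 days (adjusted p 0.0725 to 0.0943). The summed level of 9 markers of collecting duct principal cells was 11.6 to 12.9, 6.28 to 8.58 and 5.26 to 11.7 in IKKβ∆Tub and 13.7 to 15.5, 5.69 to 9.36 and 3.6 to 6.07 in control at baseline, 2 and 14 days. The summed level of 8 markers of smooth muscle and pericytes was 4 to 7.48, 16.3 to 20.9 and 6.13 to 7.33 in IKKβ∆Tub and 4.99 to 6.6, 12.4 to 15.2 and 5.46 to 7.05 in control. In IKKβ∆Tub this sum was high at 2 days, as Tbxa2r was, and in control it was high at 2 days while no Tbxa2r change passed there against baseline. The platelet sums given with Tbxas1 were also highest at 2 days in both strains. The part of these cells in the Tbxa2r values was not tested.

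The comparison of strains at each time asked which transcripts depended on tubular IKKβ. With limma none of the 10 genes passed at any time, against 0.0428% of all genes at baseline, 0% at 2 days and 0.367% at 14 days. At an unadjusted p under 0.05 there were 2 at baseline, 2 at 2 days and 4 at 14 days, where 15.6%, 6.76% and 14% of all genes lay. No member passed with edgeR, and DESeq2 called 1 at baseline, 0 at 2 days and 1 at 14 days. Shares of all genes were counted with limma only, so none stands beside the DESeq2 calls. The groups did not overlap for 2 members at each time, against 22.1%, 12.6% and 13.5% of all genes.
Before injury the 3 IKKβ∆Tub libraries had Tbxa2r levels of 0.0675, 0.0364 and 0.0314 and the control libraries 0.0948, 0.106 and 0.122. All IKKβ∆Tub libraries were below control, a log2 change of -1.23 (SE 0.36, adjusted p = 0.154 with limma, 0.119 with edgeR and 0.0305 with DESeq2). Without IKKβ∆Tub replicate 1 it was -1.53 (adjusted p = 0.019 with limma). That replicate was the only IKKβ∆Tub baseline library without Y-linked expression, and no control baseline library had any. Without it, strain and Y-linked expression coincide at baseline and cannot be told apart. Over 15 alternative runs the difference ranged from -1.53 to -0.74 and passed in 2. At 14 days the level was 0.0386, 0.0571 and 0.0732 in IKKβ∆Tub and 0.0362, 0.0165 and 0.0438 in control, which overlapped, at 0.76 (SE 0.36, adjusted p = 0.347). The strain difference therefore pointed down at baseline and up at 14 days. The test of this shift gave 1.99 (SE 0.50, unadjusted p = 0.00106, adjusted p = 0.0848 with limma, 0.0065 with DESeq2), and it did not pass with limma. It passed without IKKβ∆Tub replicate 1 at baseline (2.29, adjusted p = 0.0138 with limma) or at 14 days (2.22, adjusted p = 0.0452). In the first of these runs strain and Y-linked expression coincide at baseline, as above. Over 21 alternative runs the shift ranged from 1.02 to 2.29 and passed in 3, the one with DESeq2 included.
At 14 days Ptgfr levels were 0.37, 0.871 and 0.517 in IKKβ∆Tub and 0.276, 0.323 and 0.347 in control, without overlap. The strains differed by a log2 change of 0.80 (SE 0.22, adjusted p = 0.0971 with limma, 0.126 with edgeR and 0.0206 with DESeq2), and 1.08 without IKKβ∆Tub replicate 1 (adjusted p = 0.0152 with limma). Without IKKβ∆Tub replicate 2, the library that stood apart, it was 0.47 (adjusted p = 0.502). At 2 days they were 0.583, 0.707 and 0.525 in IKKβ∆Tub, all below the 0.878, 0.865 and 0.807 of the libraries labelled control, at -0.50 (SE 0.22, adjusted p = 0.729). The shift of the strain difference between 2 and 14 days was 1.30 (SE 0.31, unadjusted p = 0.000735, adjusted p = 0.165 with limma, 0.0284 with DESeq2). It was 1.58 without IKKβ∆Tub replicate 1 at 14 days (adjusted p = 0.025 with limma). Over 22 alternative runs this shift ranged from 0.97 to 1.58 and passed in 2, the one with DESeq2 included. At 14 days 0 of 3 IKKβ∆Tub and 2 of 3 control libraries had Y-linked expression, and at 2 days 3 and 1 of 3. Strain and Y-linked expression are therefore partly aligned at both times, in opposite ways. Tbxa2r before injury and Ptgfr at the later time were singled out in the original work from these same libraries, so their values there are not independent evidence.
Tbxas1 also changed place between the strains. It was 0.289, 0.202 and 0.249 in IKKβ∆Tub and 0.157, 0.116 and 0.115 in the libraries labelled control at 2 days, at 0.90 (SE 0.30, adjusted p = 0.713 with limma). At 14 days it was 0.117, 0.0717 and 0.115 in IKKβ∆Tub, all below the 0.192, 0.141 and 0.181 of control, at -0.75 (SE 0.30, adjusted p = 0.268). The shift between these times was -1.65 (SE 0.43, unadjusted p = 0.00133, adjusted p = 0.182 with limma, 0.0479 with DESeq2). Y-linked expression changed place between the strains over these times as well, as given with Ptgfr. Ptges at 14 days was 0.383, 0.552 and 0.637 in IKKβ∆Tub and 0.371, 0.259 and 0.468 in control, at 0.52 (SE 0.22, adjusted p = 0.291). In the tests of a shift limma called none of the 10 genes in any pair of times, against 0%, 0.116% and 0.0306% of all genes for 2 days minus baseline, 14 days minus baseline and 14 minus 2 days. At an unadjusted p under 0.05 there were 3, 2 and 2, against 15%, 17.4% and 9.75% of all genes. For these shifts edgeR called none and DESeq2 called 1, 1 and 2, again without a share of all genes.

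**Figure D4:**
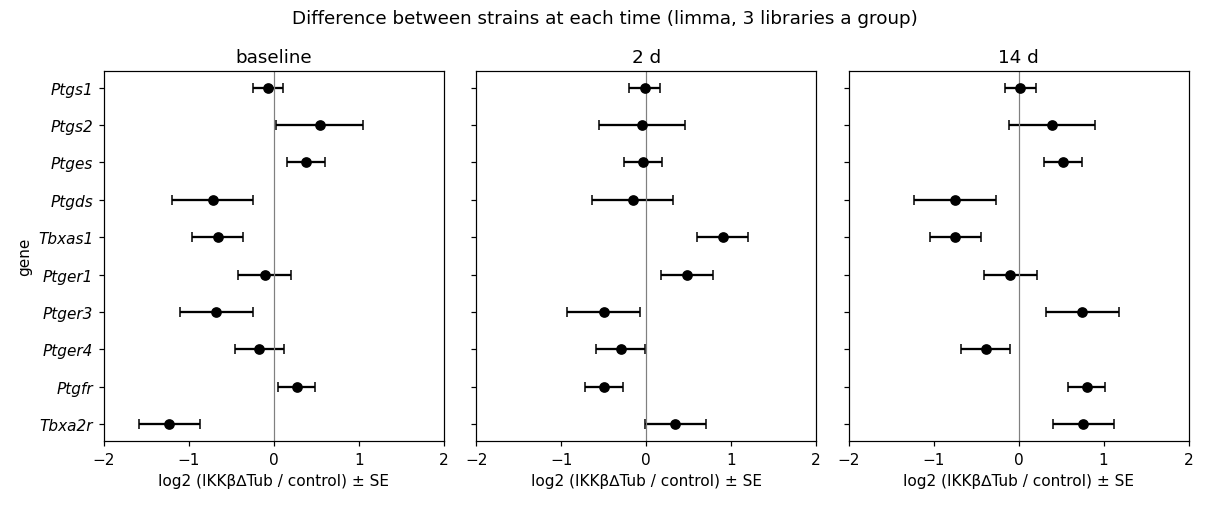
Fitted log2 ratio of IKKβ∆Tub to control for each gene at baseline, 2 days and 14 days, with points at the estimate and bars of 1 SE (3 libraries a group). Tbxa2r is at -1.23 at baseline and 0.76 at 14 days. Ptgfr is at -0.50 at 2 days and 0.80 at 14 days.

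Around these genes, 31 further genes of the prostanoid pathway were tested. None passed between strains. At 2 days 15 rose and 5 fell in IKKβ∆Tub, where 35.4% of all genes rose and 14.9% fell, and 12 rose and 4 fell in control, against 25.4% and 11.3%. At 14 days against baseline 11 rose and 5 fell in IKKβ∆Tub (28.3% and 11.2% of all genes), and 13 rose and 6 fell in control (32.5% and 17.3%). Of 11 phospholipase genes 6 rose at 2 days in each strain, a count over few genes beside the same shares of all genes, among them Pla2g4a, the cytosolic phospholipase that frees arachidonic acid, at 1.38 in IKKβ∆Tub (SE 0.29, adjusted p = 0.00109 with limma) and 1.02 in control (SE 0.29, adjusted p = 0.0127). Pla2g7, which encodes an acetylhydrolase of platelet-activating factor, had 2.26 in control at 14 against 2 days (SE 0.29, adjusted p = 3.12e-05) and 0.87 in IKKβ∆Tub (SE 0.29, adjusted p = 0.0294).
Among the synthases Akr1b8, an aldo-keto reductase, had the largest change of the 31 genes at 2 days in both strains. Its level was 1.17, 1.01 and 1.32 in IKKβ∆Tub and 1.05, 1.25 and 1.16 in control at 2 days, against 0.067, 0.0504 and 0.0328 in IKKβ∆Tub and 0.0198, 0.0283 and 0.0612 in control at baseline. The log2 fold change was 4.45 in IKKβ∆Tub (SE 0.48, adjusted p = 2.41e-06) and 4.93 in control (SE 0.48, adjusted p = 1.09e-06). Hpgds, the hematopoietic synthase of prostaglandin D2, rose at 14 days by 1.79 in IKKβ∆Tub (SE 0.41, adjusted p = 0.00306) and 2.67 in control (SE 0.41, adjusted p = 7.29e-05). Ptgis, the prostacyclin synthase, rose then by 1.66 in IKKβ∆Tub (SE 0.25, adjusted p = 0.000211) and 0.98 in control (SE 0.25, adjusted p = 0.00366). Ptges3, which encodes a cytosolic prostaglandin E synthase that is also a co-chaperone, fell in both strains at 14 days, with -1.26 in IKKβ∆Tub (SE 0.17, adjusted p = 9.63e-05) and -1.12 in control (SE 0.17, adjusted p = 5.8e-05). Ptges2 fell as well, with -0.42 in IKKβ∆Tub (SE 0.16, adjusted p = 0.0499) and -0.97 in control (SE 0.16, adjusted p = 0.000178).
Akr1b3, another aldo-keto reductase gene, fell at 14 days in IKKβ∆Tub, with -3.09 (SE 0.50, adjusted p = 0.000334 with limma), and had -0.91 in control (SE 0.50, adjusted p = 0.139). Its baseline levels were unlike, at 3.4, 2.35 and 0.998 in IKKβ∆Tub and 0.418, 0.521 and 1.83 in control. Cbr1, a carbonyl reductase gene, fell in control, with -2.28 at 14 days (SE 0.53, adjusted p = 0.00205), and had 0.87 in IKKβ∆Tub (SE 0.53, adjusted p = 0.197). Its baseline levels were 4.95, 1.08 and 1.09 in IKKβ∆Tub and 7.33, 8.22 and 2.83 in control. The 1.08 and 1.09 came from the baseline libraries with Y-linked expression. At 14 days it had 2.2, 5.75 and 2.84 in IKKβ∆Tub and 1.2, 0.863 and 1.43 in control. The 5.75 was that of replicate 2, the library that stood apart. Ptgr1, whose product reduces prostaglandin and leukotriene metabolites, rose at 2 days by 1.82 in IKKβ∆Tub (SE 0.31, adjusted p = 0.000173) and 1.68 in control (SE 0.31, adjusted p = 0.000552). Ptgfrn, which encodes a negative regulator of FP, rose then by 2.47 in IKKβ∆Tub (SE 0.27, adjusted p = 2.67e-06) and 1.96 in control (SE 0.27, adjusted p = 4.06e-05).
Ptger2 encodes EP2, which like EP4 couples to the stimulatory G protein. At 14 days its level was 0.0142, 0.00512 and 0.0186 in IKKβ∆Tub and 0.0325, 0.0528 and 0.0304 in control, against at most 0.00393 in IKKβ∆Tub and 0.00609 in control at baseline. The rise was 1.11 in IKKβ∆Tub (SE 0.30, adjusted p = 0.0086 with limma) and 2.31 in control (SE 0.30, adjusted p = 1.87e-05). All IKKβ∆Tub libraries were below control at 14 days, at -1.35 (SE 0.30, unadjusted p = 0.00032, adjusted p = 0.058 with limma), which did not pass. The lowest of them, 0.00512, was replicate 2, the library that stood apart. Y-linked expression also differed between the strains at 14 days, as given with Ptgfr. Ptgir, the prostacyclin receptor, rose at 14 days by 1.61 in IKKβ∆Tub (SE 0.26, adjusted p = 0.000329) and 0.78 in control (SE 0.26, adjusted p = 0.0191). Hpgd, the enzyme that inactivates prostaglandins, passed in no comparison. Ptgdr, a receptor of prostaglandin D2, was below the filter, with levels of at most 0.0022.

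The genes whose pattern over the 18 libraries was most like that of a member were found by the root mean square difference of centred log2 levels, as a description. For Ptger4 they were Hs3st1 (0.18), Sdc1 (0.22) and Lrfn4 (0.23), where the median over all genes was 0.76. For Ptger3 they were Mme (0.25), Fads6 (0.27) and Gm13111 (0.30), against 1.02. Mme encodes neprilysin, a protease of the proximal tubule brush border. For Tbxa2r they were Hsd11b2 (0.30), Rtp3 (0.32) and Hoxb5os (0.32), against 0.82, and Hsd11b2 is the collecting duct enzyme that inactivates glucocorticoids. For Ptgfr they were Gnat2 (0.26), Slc18b1 (0.28) and Rmdn3 (0.28), for Ptgs1 St3gal6 (0.14), Fam46c (0.14) and Epcam (0.16), and for Ptges Cd59a (0.24), Prkag2 (0.26) and Dcaf11 (0.26). For Ptgds Fam180a (0.39), Ebf4 (0.42) and Slc37a1 (0.44) were nearest. For Tbxas1 they were Mill2 (0.31), 5730409E04Rik (0.31) and Zfp853 (0.32), and for Ptger1 Srrt (0.26), Sugp2 (0.27) and Srpk1 (0.27).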

How the data were processed

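Poly(A)-selected, stranded, paired-end libraries were made from kidney RNA. Per the labels and methods, reads passed FastQC 0.11 and Trim Galore 0.4, were aligned with STAR 2.5.2b to GRCm38 and counted with featureCounts 1.5.2. The authors deposited a signal value per gene, its reads divided by the 90th percentile of the library. All values were whole multiples of 1 read within 0.001, so read counts were recovered. Only 2.72% of gene starts in the table equal those of GENCODE M21, so positions come from GENCODE M21 (GRCm38), matched by Ensembl identifier. Promoters of 9 of the 10 genes come from RefSeq (GRCm38.p6), from a table of 250 bases before each start.

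The deposited values are scaled levels, so limma was the main test, and count models on the recovered reads were alternatives. Levels were tested with limma 3.58.1 in R 4.3.3 on log2(value + 0.005), with eBayes trend, for genes at 0.005 or more in at least 3 libraries. Fold changes are on that scale and understate those of low genes. Alternatives were edgeR 4.0.16 and DESeq2 1.42.0 on the recovered reads, pseudocounts of 0.05 and 0.0005, no filter, median-ratio rescaling, a replicate block, only the libraries compared, a Y-linked term, and leaving out libraries. The test was checked on simulated data. Groups and replicate numbers come from the labels. Named genes were all members, direct partners, up to 3 others per comparison with the largest called change, and the 3 genes most like each member that passed. The members and lists were chosen with earlier results of these data known. Exonic lengths are merged exons of GENCODE M21. Itgam has 2 rows in the table, both in the macrophage sum. Figures were drawn with matplotlib 3.10.9. One result that bears on Ptger1 is not reported here.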

Additional observations from a re-analysis of the deposited data

How the results depend on the processing

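Of the 23 member changes called by limma, 12 kept their call and direction under every alternative run and 11 lost it under at least 1, and none of 715 alternative values of the 44 member differences with an unadjusted p under 0.05 reversed its direction. Shares of all genes called were counted for the main limma run only. The counts of members under alternative and leave-one-out runs in this section therefore have no share beside them. The number of members called moved by more than 1.5 times in these cases. For strains, DESeq2 called 1 at baseline and 1 at 14 days, and 1, 1 and 2 in the shifts of 2 days minus baseline, 14 days minus baseline and 14 minus 2 days, where limma called 0. For IKKβ∆Tub at 14 days against baseline (2 with limma) there were 5 with edgeR, 5 with DESeq2, 5 after median-ratio rescaling, 4 with the Y-linked term and 1 with only the libraries compared. For IKKβ∆Tub at 14 against 2 days (4) there were 2 without a filter, 2 with the Y-linked term and 1 with only the libraries compared. For control at 2 days against baseline (2) there were 4 with only the libraries compared. Runs without the 2 libraries of doubtful genotype also moved the counts for control at 2 days against baseline and at 14 against 2 days. They kept only control replicate 3 at 2 days, so their counts are not given. The causes were not tested, except that fewer libraries enter some of these fits.

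Leaving out each replicate in turn gave 0 to 1 member called between strains at baseline, 0 to 0 at 2 days and 0 to 1 at 14 days. In IKKβ∆Tub it gave 4 to 6 at 2 days against baseline, 1 to 4 at 14 days against baseline and 1 to 3 at 14 against 2 days. In control it gave 2 to 3, 5 to 7 and 2 to 3. In the shifts it gave 0 to 0, 0 to 1 and 0 to 1. Where a group is left with 2 libraries the spread is taken from all groups.

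The labels number the replicates alike in all groups, but correlations of same-numbered libraries were over 0.1 for all 3 pairs in no comparison, so the numbers do not pair them. With the replicate block the counts were 0, 0 and 0 between strains, 6, 2 and 3 in IKKβ∆Tub, 2, 5 and 3 in control and 0, 0 and 0 in the shifts. Ptgs1 in IKKβ∆Tub at 14 against 2 days (adjusted p = 0.0548 with limma) and Ptges in control at 14 days (0.0541) lost their call. Depth limits Ptgs2, Ptger1 and Tbxa2r most, with as few as 10, 23 and 31 reads a library.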

Other observations

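The leukotriene branch of arachidonic acid metabolism, which lies outside the prostanoid genes, was measured in the same libraries. Of 11 tested genes of leukotrienes and lipoxygenases, 7 rose at 2 days in IKKβ∆Tub, where 35.4% of all genes rose, and 7 in control, against 25.4%. At 14 days against baseline 6 rose in IKKβ∆Tub (28.3% of all genes) and 7 in control (32.5%). None passed between strains with limma. Alox5ap, which encodes the protein that presents arachidonic acid to 5-lipoxygenase, had levels of 0.407, 0.4 and 0.446 in IKKβ∆Tub and 0.226, 0.259 and 0.231 in control at 2 days. At baseline its levels were 0.0207, 0.0175 and 0.0221 in IKKβ∆Tub and 0.0239, 0.0204 and 0.0226 in control. The log2 fold change was 4.08 in IKKβ∆Tub (SE 0.40, adjusted p = 9.24e-07 with limma) and 3.16 in control (SE 0.40, adjusted p = 1.93e-05). From 2 to 14 days it fell by 1.72 in IKKβ∆Tub (SE 0.40, adjusted p = 0.004 with limma), where the 14-day levels were 0.202, 0.0425 and 0.21. The 0.0425 was that of replicate 2, the library that stood apart, and 0.202 and 0.21 were also below the 2-day levels. Control stood at 0.524, 0.432 and 0.299 at 14 days.

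Cysltr1, a receptor of cysteinyl leukotrienes, rose at 14 days against baseline by 1.95 in IKKβ∆Tub (SE 0.34, adjusted p = 0.000535 with limma) and 3.10 in control (SE 0.34, adjusted p = 5.17e-06). Ltc4s, the leukotriene C4 synthase, rose at 2 days by 2.47 in IKKβ∆Tub (SE 0.32, adjusted p = 1.58e-05) and 1.87 in control (SE 0.32, adjusted p = 0.000318). The summed macrophage marker levels given with Tbxas1 were raised in these groups too, and their part in these changes was not tested.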
